A study of Mus musculus with 12 samples.

Results

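The ileum of mice given G007-LK into the peritoneum, labelled 30 mg/kg and injected 2 times a day, was compared with the ileum of mice dosed by mouth with STP1002, 5 mg/kg once daily. Each arm lasted 28 days and contributed 3 mice, drawn at random from 8, so 6 of the 12 libraries in the series carry the comparison. All 780 genes of the table were compared, out of 794 features that also include 8 negative and 6 positive control probes. The remaining 6 libraries are 3 DMSO controls, dosed by mouth once daily, and 3 mice on STP1002 at 10 mg/kg. No group received an injection without G007-LK. Compound, dose, route and number of doses a day therefore change together between the arms and cannot be told apart. Strain, sex and age of the mice are not given in the sources used here.

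G007-LK and STP1002 both inhibit tankyrases, enzymes that attach chains of ADP-ribose to axin and so mark it for breakdown. Axin is a scaffold of the complex that destroys beta-catenin, the messenger of Wnt signalling, and a tankyrase inhibitor stabilises axin and dampens that signal. In the intestine Wnt signalling keeps crypt stem cells dividing, and the gut is a known site of toxicity of tankyrase inhibitors. The question that this pair of arms addresses is how the transcripts of the same tissue differ between regimens of both compounds.

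Values are the authors' normalized signal from the nCounter system, which counts colour-coded reporters bound to single RNA molecules without amplification. Recovered reporter counts of the 780 genes summed to 508829, 50249 and 148454 in G007-LK replicates 1, 2 and 3, and to 67398, 62239 and 44180 in STP1002 5 mg/kg replicates 1, 2 and 3. The deepest library thus held 11.5 times the counts of the shallowest. G007-LK replicate 1 stood apart from the rest, at -49.58 on a first principal component that carried 57.96% of the variance, while the other 5 libraries of the comparison lay between -4.34 and 5.07. Results are therefore also given without it. The background of a library, set at the mean plus 2 SD of its negative probes, ranged from 4.36 to 40.4 signal units over the 6 libraries, and 553 of the 780 genes lay above it in all 6. Of 10 measured epithelial markers, 7 lay above background in all 6 libraries, among them Epcam, Sfn and Spint2. Summed signal of these 10 genes was 569, 1242 and 1919 in the G007-LK libraries and 10196, 2386 and 15402 in the STP1002 libraries. The low value on the STP1002 side, replicate 2, coincided with the highest Actg2, a smooth muscle actin, at 1315 against 186 to 298 in the other 5 libraries. These differences between mice of 1 arm rest on few genes. Most of the epithelial sum in the STP1002 libraries came from Sfn, Spint2 and Erbb3, and the smooth muscle side is Actg2 alone. Tissue content of the samples was not tested.

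Differences are log2 fold changes, G007-LK minus STP1002 5 mg/kg, on the log2(signal + 1) scale, tested with limma and called at an adjusted p under 0.05 over all 780 genes. Of these genes 22 were called, 2.82% of the panel. Transcripts of macrophages, extracellular matrix and mucosal inflammation made up most of the 14 higher in G007-LK ileum (1.79%), and epithelial, cell cycle and antigen presentation genes most of the 8 lower ones (1.03%). The called changes spanned sizes of 1.98 to 5.64 on the log2 scale, with standard errors of 0.44 to 0.89. In all 22 called genes the 3 G007-LK libraries lay wholly above or wholly below the 3 STP1002 libraries, as they did for 82 genes of the panel on the higher side (10.5%) and 74 on the lower side (9.49%). The median gene of the panel differed by -0.23, with 297 genes higher and 483 lower. Of the called genes, 18 lay above background in all 6 libraries. The exceptions were Nuf2 and, each below it in some libraries of its low group, Gpnmb, Ms4a4a and Car9. Nuf2 was below it in all 3 G007-LK libraries and also in STP1002 replicate 2.

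The count of calls rests on the libraries as well as on the genes. Without G007-LK replicate 1, 7 genes were called, namely Gpnmb, Cd68, Cd14, Tyrobp and Thbs1 as higher and Car9 and Ccnd1 as lower. The same 7 were called without STP1002 5 mg/kg replicate 1. All 22 kept their direction in each case, while the median gene moved to 0.15 without G007-LK replicate 1 and to -0.34 without STP1002 replicate 1. Quantile normalization moved it to -0.04 and gave 19 calls, of which 47.4% were higher against 63.6% with the signal as deposited. Leaving out STP1002 5 mg/kg replicate 2 left 7 higher calls, and leaving out G007-LK replicate 2 gave 22. The lower calls were 5 without control replicate 2 or 3, and 4, 4 and 5 without STP1002 10 mg/kg replicates 1, 2 and 3. A fit of the 6 libraries alone, with no spread borrowed from the other groups, called 1 gene, Gpnmb.

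**Figure D1:**
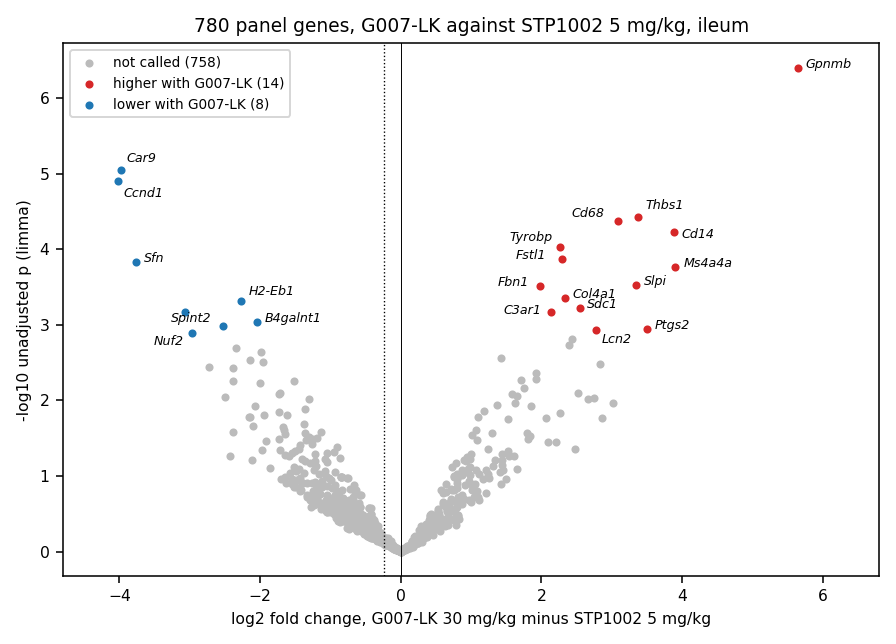
Each point is 1 of the 780 genes, with its log2 fold change (G007-LK minus STP1002 5 mg/kg) on the horizontal axis and -log10 of the unadjusted limma p on the vertical axis. Coloured points are the 14 genes called higher and the 8 called lower, the dotted line is the median of all genes at -0.23, and Gpnmb lies farthest from 0 at 5.64.

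Macrophage and other myeloid markers were the list with the largest median difference of the 27 examined. Of 15 measured, 13 were higher with G007-LK and 2 lower, 5 were called as higher and none as lower, and the list median was 1.72 against -0.23 for all genes. Without G007-LK replicate 1 the median was 1.15, 13 were still higher and 4 were called. Summed signal of the 15 was 10758, 6776 and 5604 in the G007-LK libraries and 2028, 1582 and 1759.7 in the STP1002 libraries, with no overlap. The 5 called members made up most of the G007-LK sums. Summed without them, the other members overlapped between the arms. DMSO libraries summed to between 989.7 and 1449. In bulk tissue, more cells of a type and more RNA per cell cannot be told apart.

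Gpnmb, a transmembrane glycoprotein of lysosome-rich macrophages, measured 1998, 414 and 914 in the G007-LK libraries and 14.8, 23.3 and 14.9 in the STP1002 libraries. Every G007-LK library was far above every STP1002 library, and the STP1002 and DMSO libraries, the latter at 7.05 to 18.9, were near or below background. It differed by a log2 fold change of 5.64 ± 0.70 (SE, n = 3 a side), with a limma adjusted p of 0.000311, and it was 5.08 without G007-LK replicate 1. With 1 background floor common to all libraries it was 4.50, so its size depends on how low values are treated. Cd68, a lysosomal glycoprotein used as a macrophage marker, measured 1909, 519 and 795 against 83.2, 130.0 and 115. That is a log2 fold change of 3.09 ± 0.56 with a limma adjusted p of 0.0066. Cd14, the co-receptor that hands bacterial lipopolysaccharide to Tlr4, measured 1194, 235 and 682 against 29.6, 31.7 and 59.5. Its groups did not overlap either, and it differed by 3.88 ± 0.73 with a limma adjusted p of 0.00771.

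Tyrobp, the signalling adaptor of many activating myeloid receptors, measured 1958, 3757 and 1829.8 with G007-LK and 553, 293 and 755 with STP1002. Unlike the genes above, it was highest in G007-LK replicate 2 and not in replicate 1. The log2 fold change was 2.26 ± 0.44 (limma adjusted p = 0.0104) and 2.40 without replicate 1. Ms4a4a, a tetraspan membrane protein of macrophages, measured 1214, 570.0 and 225 against 38.8, 18.3 and 59.5. The lowest G007-LK library still exceeded the highest STP1002 library, and the difference was 3.90 ± 0.81 (limma adjusted p = 0.0134). C3ar1, the receptor for complement fragment C3a, lies outside the rule for named genes and was chosen after its values were seen. It measured 1255, 1462 and 667 against 214, 133 and 506, a log2 fold change of 2.13 ± 0.51 (limma adjusted p = 0.0309).

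The myeloid list was not uniform. Members that did not pass the test include Ccr2, the chemokine receptor of inflammatory monocytes, at -2.00 (limma adjusted p = 0.119) with all 3 G007-LK libraries below the STP1002 libraries. Csf1r, the growth factor receptor of macrophages, differed by 0.91 (limma adjusted p = 0.529) and Itgax, an integrin of dendritic cells, by 0.37 (limma adjusted p = 0.849), each with overlapping groups. Ncf1, a subunit of the phagocyte oxidase, stood at -1.22 (limma adjusted p = 0.383). Ccr2, Csf1r, Itgax and Ncf1 were chosen after their values were seen. Of the 4 neutrophil markers measured, 1 was higher, 3 were lower and none was called. Among them Ly6g, a surface protein of mouse neutrophils, differed by -0.15. The 95% interval was -1.87 to 1.56, so changes within it in either direction were not excluded. The sign of Ly6g turned with median-ratio and quantile scaling and without G007-LK replicate 1.

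**Figure D2:**
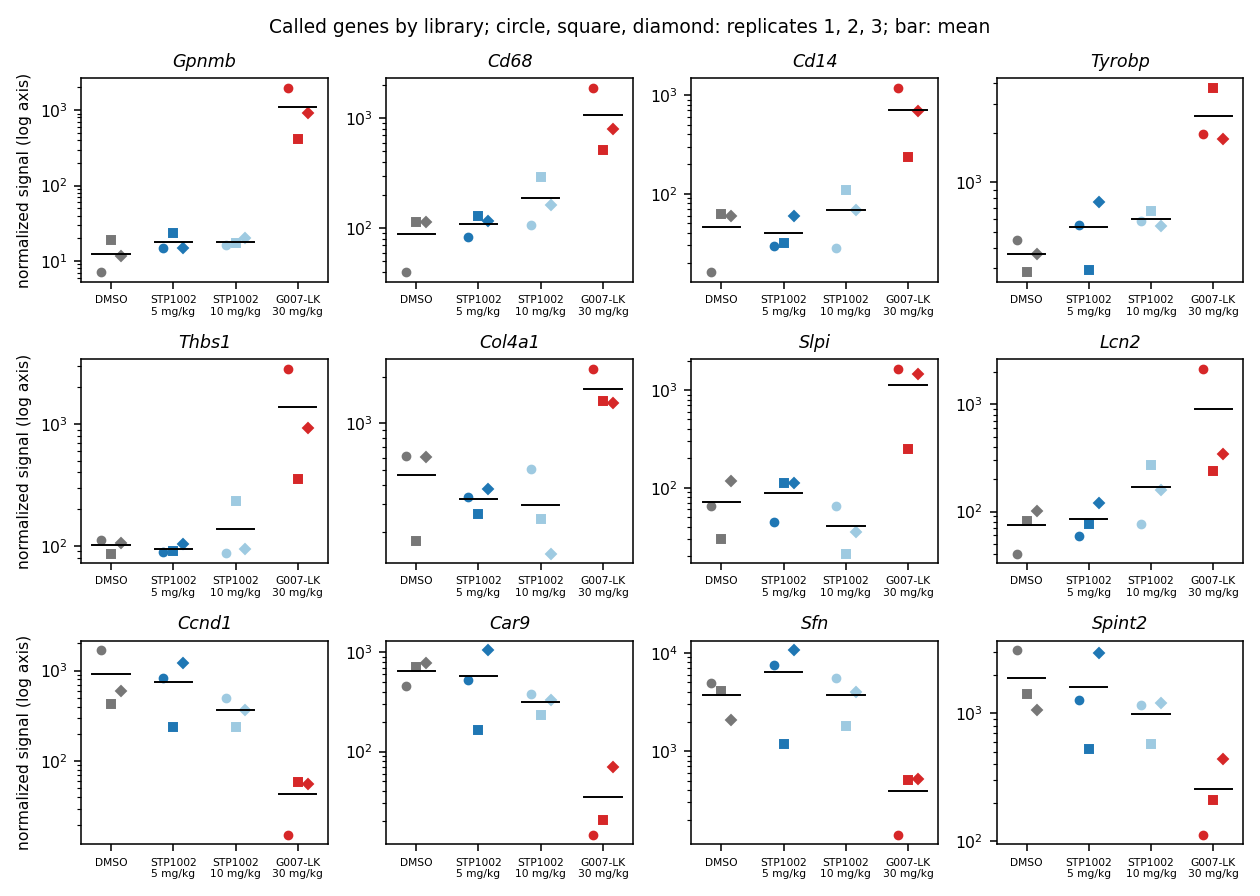
Normalized signal of called genes in each of the 12 libraries on log axes, with the group on the horizontal axis, 1 symbol per replicate and a bar at the group mean. In every panel the 3 G007-LK libraries lie wholly above or wholly below the 3 libraries of STP1002 at 5 mg/kg.

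Fibroblast and extracellular matrix genes were also higher with G007-LK. Of 19 measured, 17 were higher and 2 lower, 3 were called as higher, and the median was 0.93, or 0.72 without G007-LK replicate 1, where 1 stayed called. Their summed signal was 10906, 5109.6 and 5991 against 1967, 2172 and 2612. The DMSO libraries reached up to 3375 and so overlapped the STP1002 libraries but not those of G007-LK.

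Thbs1, thrombospondin 1, a secreted protein that activates latent TGF-beta, measured 2854, 355 and 929.8 with G007-LK and 88.7, 90.0 and 104 with STP1002. The STP1002 libraries were tight, and the G007-LK libraries were widely spread but all above them. The log2 fold change was 3.37 ± 0.61 (limma adjusted p = 0.0066) and 2.60 without G007-LK replicate 1. Col4a1, a chain of basement membrane collagen, measured 2248, 1393 and 1358 against 333, 262 and 379. The groups lay well apart, by 2.33 ± 0.53 (limma adjusted p = 0.0262). Fbn1, fibrillin 1 of elastic microfibrils, had the most even G007-LK values of the called genes, 1013, 895 and 846, against 235, 153 and 342. It differed by 1.98 ± 0.44 (limma adjusted p = 0.0197) and by 1.91 without G007-LK replicate 1, where the limma adjusted p was 0.0588.

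Fstl1, a secreted glycoprotein of mesenchymal cells that belongs to the follistatin family, stood in none of the lists. It measured 1365, 506 and 745 with G007-LK and 109, 185 and 212 with STP1002, with no overlap and a log2 fold change of 2.30 ± 0.47 (limma adjusted p = 0.0129). Stromal genes that did not pass the test pointed the same way, with values of 1.65 ± 0.55 for Dcn, the collagen-binding proteoglycan decorin, and 1.19 ± 0.43 for Pdgfra, a receptor of mesenchymal cells (limma adjusted p = 0.154 and 0.196). For Pdgfra all 3 G007-LK libraries, at 588, 322 and 384, still lay above the STP1002 libraries, at 165, 185 and 201. Of 13 TGF-beta and BMP pathway genes, 10 were higher and 3 lower, Thbs1 was the one called, and the median was 0.54. The ligand Tgfb1 itself differed by 1.04 ± 0.76 (limma adjusted p = 0.64), and its groups overlapped. Endothelial markers did not share the shift, as 4 of 8 were higher, 4 were lower and none was called, with a median of -0.01.

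Genes of inflammation and mucosal defence also had a median above that of all genes. Of 22 measured, 16 were higher and 6 lower, 3 were called as higher, and the median was 0.90. Without G007-LK replicate 1 it was 0.32, the same number were higher and none was called. The panel itself moved up in that case, from a median of -0.23 to 0.15. Its genes went from 297 higher and 483 lower to 463 higher and 317 lower. G007-LK replicate 1 dominated the summed signal of the list, at 19834, against 3024 and 3852 in replicates 2 and 3 and 1615 to 2165 in the STP1002 libraries. Replicate 2 of the 10 mg/kg arm, at 3810.0, lay above G007-LK replicate 2 and just below G007-LK replicate 3, so these arms overlapped.

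Slpi, a secreted inhibitor of neutrophil elastase, measured 1659, 248 and 1469.7 with G007-LK and 44.4, 112 and 112 with STP1002, and its groups did not overlap. It differed by 3.35 ± 0.74 (limma adjusted p = 0.0197). Lcn2, lipocalin 2, which withholds iron from bacteria by binding their siderophores, measured 2160.1, 238 and 348 against 59.2, 76.7 and 119. Its difference was 2.78 ± 0.71 (limma adjusted p = 0.0432) and was 1.81, with a limma adjusted p of 0.203, without G007-LK replicate 1. Ptgs2, the inducible cyclooxygenase of prostaglandin synthesis, ranged most widely within the arm, with 3806, 435 and 127 against 66.6, 26.7 and 78.1. The log2 fold change of 3.50 ± 0.89 (limma adjusted p = 0.0432) became 2.16 without replicate 1, with a limma adjusted p of 0.165. For Ptgs2 the lowest G007-LK library lay inside the DMSO range of 80.8 to 153, and for Lcn2 inside the range of the 10 mg/kg arm, 76.4 to 270.5.

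Il6, a cytokine that signals through Stat3, did not pass the test despite 3011, 135 and 149.9 with G007-LK against 44.4, 55.0 and 44.6 with STP1002. All G007-LK libraries were higher, but replicate 1 was far above the other pair, and the difference of 3.02 ± 1.05 had a limma adjusted p of 0.168. Socs3, a feedback inhibitor that Stat3 induces, differed by 1.92 ± 0.60 (limma adjusted p = 0.118), again without overlap. In the JAK-STAT list 14 of 21 genes were higher, 7 were lower and none was called, at a median of 0.51. Of 15 interferon response genes, 6 were higher, 9 were lower and none was called.

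The Wnt genes did not move as a block. Of 17 listed core genes of the pathway and the crypt, only 5 were measured. Of these 5 genes 4 had positive values and 1 was called, as lower. Their median was 0.33 and became -0.31 without G007-LK replicate 1. Ccnd1, cyclin D1, which drives cells from G1 into S phase and is a classic Wnt target, measured 15.4, 58.8 and 55.4 with G007-LK and 821, 237 and 1209 with STP1002. No G007-LK library came near the lowest STP1002 library, and the DMSO libraries, at 428 to 1699, lay with the latter. The log2 fold change was -4.02 ± 0.66 (limma adjusted p = 0.00329), and -3.41 without G007-LK replicate 1.

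Ctnnb1, which encodes beta-catenin, measured 306, 135 and 126 against 107, 197 and 201, with overlapping groups. The difference was 0.10 ± 0.49, with a 95% interval of -0.94 to 1.14, and its sign turned under several alternatives. Myc, a transcription factor and Wnt target, differed by 0.33 ± 0.47, with an interval of -0.67 to 1.32, and its libraries spanned 110 to 142 against 85.6 to 135. Mki67, a protein of dividing cells, differed by 0.46 ± 0.89, with an interval of -1.41 to 2.34, and by -0.77 without G007-LK replicate 1. For these 3 the limma adjusted p was 0.951, 0.785 and 0.835, and changes within the intervals were not excluded.

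Cd44, a hyaluronan receptor of crypt and immune cells, pointed the other way from Ccnd1. It measured 537, 69.0 and 60.5 with G007-LK and 25.9, 26.7 and 11.2 with STP1002, all higher with G007-LK, but the difference of 2.67 ± 0.91 did not pass (limma adjusted p = 0.157). Among 8 further ligands, receptors and destruction complex genes 5 were higher, 3 were lower and none was called, at a median of 0.31. Without G007-LK replicate 1 the median was 0.58, with 7 higher, while leaving out STP1002 5 mg/kg replicate 1 gave -0.03. Apc, a scaffold of the destruction complex, had its G007-LK libraries, at 84.3 to 135, below the STP1002 libraries, at 160.0 to 314, with a difference of -1.13 ± 0.46 (limma adjusted p = 0.285). Gsk3b, the kinase of that complex, went the opposite way at 0.76 ± 0.44 (limma adjusted p = 0.492). Axin2, Lgr5 and the tankyrase genes were not analysed here.

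Sfn and Spint2 were called as lower among 10 epithelial markers, of which 9 were lower and 1 higher, with a median of -0.72. Without G007-LK replicate 1 the median was -0.27, 6 were lower and none was called, and with array weights it was 0.08, close to the 0.06 of all genes. Sfn, the 14-3-3 sigma protein of epithelial cells, measured 141, 509 and 523 with G007-LK and 7458, 1169 and 10740.4 with STP1002. The groups did not overlap, with STP1002 replicate 2 the lowest of its arm. The difference was -3.76 ± 0.77 (limma adjusted p = 0.0129).

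Spint2, an inhibitor of membrane serine proteases that the intestinal epithelium needs, measured 112, 209.6 and 440.2 against 1270.1, 528 and 2984. Once more replicate 2 came lowest on the STP1002 side but above every G007-LK library, and the difference was -2.52 ± 0.64 (limma adjusted p = 0.0424). Erbb3, the neuregulin receptor, gave 63.5, 135 and 321 against 1004, 228 and 1060.3. G007-LK replicate 3 thus exceeded STP1002 replicate 2, and the difference of -2.14 ± 0.62 did not pass (limma adjusted p = 0.0815). B4galnt1, a ganglioside synthase that stood in none of the lists, measured 318, 785 and 622 against 2170.4, 1267 and 4022, without overlap (-2.05 ± 0.51, limma adjusted p = 0.0393). Cdh1, E-cadherin of epithelial junctions, differed by -0.68 with an interval of -1.84 to 0.48 (limma adjusted p = 0.659). The part of epithelial content in these differences was not tested. The summed epithelial signal given above is no separate measure of it. Sfn, Spint2 and Erbb3 are themselves members of that list and made up most of the sum in each STP1002 library.

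**Figure D3:**
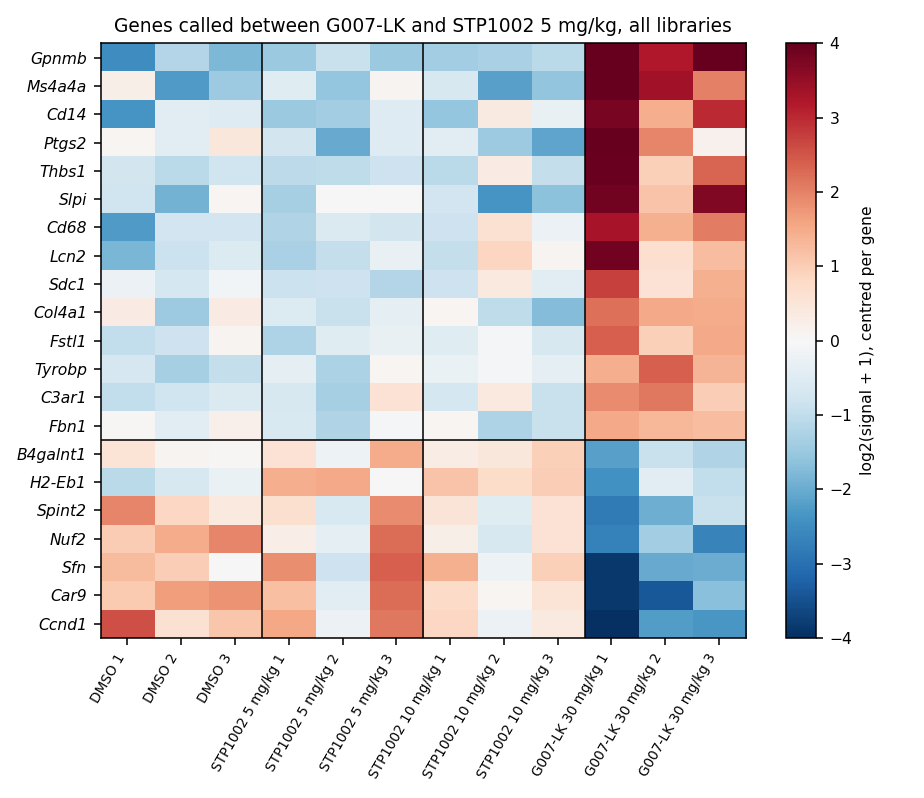
Called genes named in the text by library, as log2 signal centred on the mean of each gene, with libraries grouped by arm along the horizontal axis. Red marks values above and blue values below the gene's mean, with colours saturating at the ends of the scale, and in each gene shown the 3 G007-LK columns lie wholly above or wholly below the 3 columns of 5 mg/kg.

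Car9, carbonic anhydrase 9, had the largest difference of the called lower genes after Ccnd1. The enzyme sits on the cell surface, regulates pH, and is a textbook target of the hypoxia-inducible factor HIF, whose oxygen-regulated subunit Hif1a encodes. The promoter of Car9 is shown because Car9 was called as lower while Hif1a pointed the other way without passing the test. The sequence covers 250 bases before to 50 after the RefSeq start, at chr4:43506776-43507075 of GRCm38.p6, plus strand, 5′ to 3′, with capitals marking the HIF core motif ACGTG, here on the opposite strand and so read as CACGT.
Car9: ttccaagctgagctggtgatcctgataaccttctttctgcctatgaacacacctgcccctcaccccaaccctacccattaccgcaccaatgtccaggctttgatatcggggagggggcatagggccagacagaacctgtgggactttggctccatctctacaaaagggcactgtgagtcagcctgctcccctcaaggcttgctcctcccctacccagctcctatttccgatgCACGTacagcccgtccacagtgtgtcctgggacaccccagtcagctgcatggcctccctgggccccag
The match lies 18 to 14 bases before the start. Searched on both strands, ACGTG occurs in 19.6% of 32851 RefSeq mouse promoters of this length and in 26% of 577 promoters of panel genes, so the match is a description and not evidence of binding.

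Car9 measured 14.5, 20.5 and 69.8 with G007-LK and 521, 165 and 1060.3 with STP1002. The groups did not overlap, and the DMSO libraries, at 459 to 787, lay inside the STP1002 range. Its log2 fold change was -3.98 ± 0.63 (limma adjusted p = 0.00329), -3.53 without G007-LK replicate 1, and -3.22 with a common background floor. Hif1a measured 2714, 268 and 373 against 155, 127 and 93.0, higher in every G007-LK library, but at 2.40 ± 0.65 it did not pass (limma adjusted p = 0.0609). Without G007-LK replicate 1 its difference was 1.36. In the list of 17 genes of hypoxia response, glucose uptake and glycolysis, 8 were higher, 9 were lower, Car9 alone was called, and the median was -0.11. Pfkfb3 and Pfkp, a regulator and an enzyme of the same glycolytic step, had values of 1.30 and -0.95 (limma adjusted p = 0.285 and 0.383).

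MHC class II genes, which encode the molecules that present peptides to helper T cells, included H2-Eb1, the beta chain of I-E, as the 1 class II gene called. Class II promoters share a short arrangement of boxes on which the regulator Ciita acts, and the Y box is bound by NF-Y. The letters of the Y box core were searched in 6 of the 7 measured class II genes and found in 5, all but H2-DMa. Promoters of 4 of these 5 are shown, picked because they hold the motif; H2-DMb2 holds it too. Each covers the same window as for Car9 and is printed 5′ to 3′ along the gene's strand from RefSeq GRCm38.p6, with capitals marking TGATTGG, the Y box core. They lie at chr17:34305617-34305916 (plus strand, H2-Eb1), chr17:34287774-34288073 (minus strand, H2-Aa), chr17:34238655-34238954 (plus strand, H2-Ob) and chr17:34152941-34153240 (plus strand, H2-DMb1).
H2-Eb1: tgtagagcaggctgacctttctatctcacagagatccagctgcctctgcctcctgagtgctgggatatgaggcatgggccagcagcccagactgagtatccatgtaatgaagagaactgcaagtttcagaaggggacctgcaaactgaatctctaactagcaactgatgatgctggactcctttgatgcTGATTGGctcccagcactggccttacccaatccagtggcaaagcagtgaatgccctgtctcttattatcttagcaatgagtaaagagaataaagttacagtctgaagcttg
H2-Aa: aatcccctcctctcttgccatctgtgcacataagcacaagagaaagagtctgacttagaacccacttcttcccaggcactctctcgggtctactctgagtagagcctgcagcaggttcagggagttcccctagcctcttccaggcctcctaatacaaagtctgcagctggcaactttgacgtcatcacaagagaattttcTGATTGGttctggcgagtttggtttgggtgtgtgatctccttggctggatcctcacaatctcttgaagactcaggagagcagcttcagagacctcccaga
H2-Ob: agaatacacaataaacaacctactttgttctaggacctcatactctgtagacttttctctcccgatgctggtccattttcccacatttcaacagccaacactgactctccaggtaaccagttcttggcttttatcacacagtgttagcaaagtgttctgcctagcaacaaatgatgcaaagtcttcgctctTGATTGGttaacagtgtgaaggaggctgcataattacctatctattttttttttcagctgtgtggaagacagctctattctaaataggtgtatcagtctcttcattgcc
H2-DMb1: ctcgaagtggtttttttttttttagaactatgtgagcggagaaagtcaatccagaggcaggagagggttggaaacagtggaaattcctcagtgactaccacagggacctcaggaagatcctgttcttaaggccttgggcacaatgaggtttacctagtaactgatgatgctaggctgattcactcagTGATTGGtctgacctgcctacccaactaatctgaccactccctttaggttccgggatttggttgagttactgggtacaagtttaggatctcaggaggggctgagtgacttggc
The motif begins 61, 50, 59 and 63 bases before the start in H2-Eb1, H2-Aa, H2-Ob and H2-DMb1. On either strand it occurs in 7.82% of all 32851 promoters and in 12% of the 577 panel promoters. H2-Ab1 is named without a sequence.

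H2-Eb1 measured 118, 473 and 318 with G007-LK and 1734, 1829 and 639.9 with STP1002. STP1002 replicate 3 was closest to the G007-LK libraries but above them all. The log2 fold change was -2.27 ± 0.53 (limma adjusted p = 0.0269), and -1.70 without G007-LK replicate 1, with a limma adjusted p of 0.141. The DMSO libraries, at 300.0 to 529, overlapped the G007-LK range, and the 10 mg/kg libraries, at 1067 to 1401, lay inside the 5 mg/kg range. All 5 mg/kg libraries lay above the DMSO range, and G007-LK replicate 1 lay below it.

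H2-Ab1, the beta chain of I-A, repeated the layout without passing the test. It measured 111, 92.0 and 135 against 1309, 834 and 171, again with STP1002 replicate 3 the lowest of its arm, and differed by -2.35 ± 0.64 (limma adjusted p = 0.0642). H2-Ob, a B cell chain that restrains peptide loading, gave 15.4, 79.2 and 93.7 against 671, 295 and 89.3. There STP1002 replicate 3 lay inside the G007-LK range, and the difference of -2.39 ± 0.75 did not pass (limma adjusted p = 0.118). The remaining 4 class II genes, chosen after their values were seen, had values of -1.64 for H2-DMb1, -1.55 for H2-DMb2, -1.01 for H2-Aa and -0.17 for H2-DMa, none called. H2-DMa turned positive under several alternatives. Over all 19 antigen presentation genes 8 were higher and 11 lower, with a median of -0.35 that became 0.19 without G007-LK replicate 1.

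Of 10 B cell and plasma cell markers 9 were lower and 1 higher, with a median of -1.09, or -0.54 without G007-LK replicate 1. The list's single call went against its direction. Sdc1, syndecan 1, a heparan sulphate proteoglycan of both plasma cells and epithelium, measured 569.8, 128 and 229.9 with G007-LK and 46.2, 46.7 and 37.2 with STP1002. It was higher by 2.54 ± 0.60 (limma adjusted p = 0.0309), without overlap. Summed signal of the 10 genes was 1094, 1058 and 1023 with G007-LK and 3143, 1735 and 1068 with STP1002. STP1002 replicate 3 thus lay among the G007-LK libraries. That overlap depends on Sdc1, which counts in these sums. With Sdc1 left out, the sum of STP1002 replicate 3 lay above that of every G007-LK library. The DMSO libraries summed to 910.1 to 995, and the 10 mg/kg libraries to 1918 to 2142. The part of B cell content in the class II differences was not tested.

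**Figure D4:**
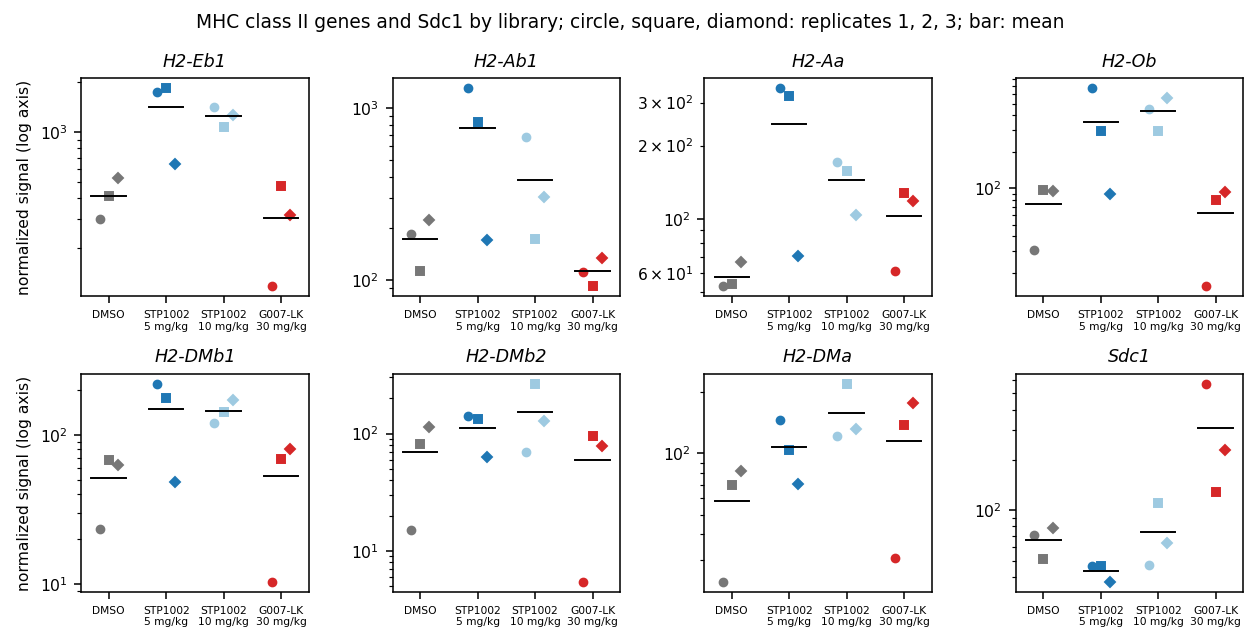
Normalized signal of 7 class II genes and Sdc1 in all 12 libraries on log axes, with the group on the horizontal axis and a bar at the group mean. For H2-Eb1 the DMSO and G007-LK libraries lie low, at 118 to 529, and both STP1002 groups lie higher, at 639.9 to 1829.

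Cell cycle genes had a median of -0.81, against -0.23 for all genes. Of 49 measured, 41 were lower and 8 higher, against 483 lower of 780 in the panel. Only 26 of the 49 lay above background in all 6 libraries. With 1 background floor common to all libraries the list median was -0.02. The list held 2 calls, both lower. These were Ccnd1, described above, and Nuf2, a kinetochore protein that anchors chromosomes to the spindle. Nuf2 measured 2.42, 7.67 and 2.55 with G007-LK, below background in each, and 25.9, 16.7 and 104 with STP1002, above it in 2 of 3. Its log2 fold change was -2.96 with the signal as deposited (limma adjusted p = 0.0461). With each G007-LK library set to its own background it was 2.57-fold lower with G007-LK. That is not a lower limit, as STP1002 replicate 2 was also below background. With a common background floor the log2 fold change was -0.46 and Nuf2 was not called. Tpx2, a spindle assembly factor, and Cdc25c, the phosphatase that starts mitosis, stood at -1.43 and -1.92 with overlapping groups (limma adjusted p = 0.336 and 0.313).

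The low medians of several lists moved with the treatment of low values and with G007-LK replicate 1. Above background in all 6 libraries were 10 of 24 DNA repair genes and 18 of 37 T and NK cell markers. With a common background floor both lists had a median of 0.0, as did all genes. Without G007-LK replicate 1 the cell cycle list had 28 of 49 lower at a median of -0.11. The 24 DNA repair genes then went from 20 lower, at -0.50, to 12 lower and 12 higher, at 0.01. T cell and NK cell markers went from 33 of 37 lower, at -0.77, to 11 lower and 26 higher, at 0.23, and none was called either way. Gzma, a granule protease of cytotoxic lymphocytes, kept its difference of -1.74 without that library, with its G007-LK libraries all below those of STP1002 (limma adjusted p = 0.308 with all libraries). Pou5f1, Nanog, Sox2 and Tert, which serve as markers of tissues other than ileum, behaved like these lists. Their summed signal was 24.5 in G007-LK replicate 1 and 323 to 417 in replicates 2 and 3, against 237 to 335 in the STP1002 libraries. The T and NK sum was 388 in G007-LK replicate 1 and 1717 to 2712 in the other 5 libraries. DMSO replicate 1, at 293538 counts, was low as well. Its T and NK sum was 679 against 2640 and 2412 in DMSO replicates 2 and 3. For Pou5f1, Nanog, Sox2 and Tert its sum was 62.6 against 401 and 411. G007-LK replicate 3, at 148454 counts, had a T and NK sum of 2236. The part of library depth in these lists was not tested.

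**Figure D5:**
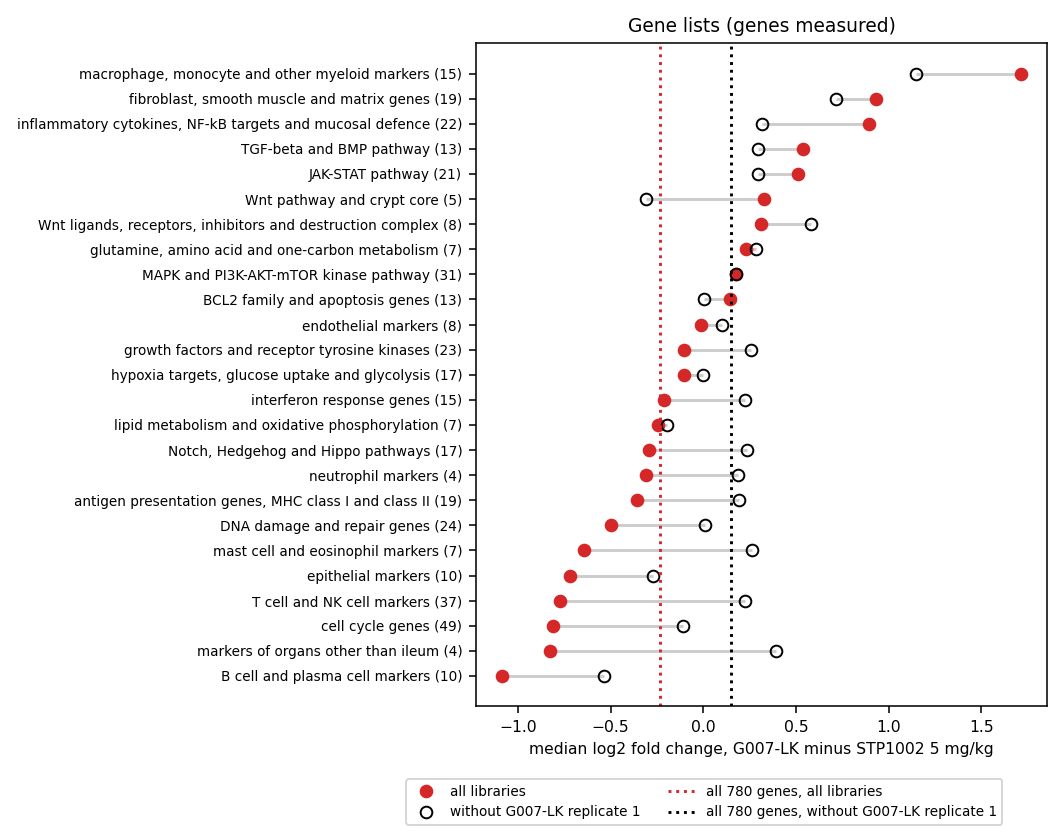
Median log2 fold change (G007-LK minus STP1002 5 mg/kg) of each gene list with at least 4 measured genes, with all libraries (filled) and without G007-LK replicate 1 (open). Dotted lines mark the median of all 780 genes in both cases, -0.23 and 0.15, and the myeloid list lies farthest to the right of both.

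Several signalling and survival lists gave no call. Among 31 MAPK and PI3K pathway genes 18 were higher and 13 lower, at a median of 0.18 with or without G007-LK replicate 1. Of 23 growth factors and receptor kinases 11 were higher and 12 lower, at a median of -0.11, against 15 higher and 8 lower without G007-LK replicate 1, at 0.26. Igf1r, the receptor for insulin-like growth factor 1, came nearest to a call there, with 1031, 1891 and 1530.1 against 423, 478 and 759. The G007-LK libraries were all higher, replicate 1 being the lowest of them, and the difference was 1.42 ± 0.41 (limma adjusted p = 0.0806). Of 13 apoptosis genes 7 were higher and 6 lower. Bad, which promotes cell death by binding Bcl2 relatives, was lower in every G007-LK library, with 35.1, 43.5 and 34.1 against 196, 71.7 and 231, at -1.96 ± 0.57 (limma adjusted p = 0.0824). Mcl1, which protects cells from death, was higher in every G007-LK library, at 1.08 ± 0.47 (limma adjusted p = 0.309). Of 17 Notch, Hedgehog and Hippo genes 5 were higher and 12 lower, at a median of -0.29, but 11 were higher and 6 lower without G007-LK replicate 1, at 0.24. Of 7 genes each for amino acid and for lipid metabolism 4 and 2 were higher. Of 7 mast cell and eosinophil markers 3 were higher.

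Set against the other libraries of the series, the G007-LK libraries lay beyond all of them in most called genes. All 22 called genes already lay apart from the 5 mg/kg libraries, so only the DMSO and 10 mg/kg libraries decide these counts. The panel shares beside them are over all 780 genes, of which 82 and 74 were so apart on the higher and lower side. In 12 of the 14 higher genes the 3 G007-LK libraries lay above all 9 other libraries, as they did in 24 genes of the panel (3.08%). In 6 of the 8 lower genes they lay below all 9, as they did in 17 genes of the panel (2.18%). Ptgs2 and Lcn2 among the higher genes and H2-Eb1 among the lower genes did not. The comparisons of G007-LK with DMSO and with STP1002 share the G007-LK libraries, so their values stand side by side here. Gpnmb differed by 6.17 from DMSO and by 5.60 from STP1002 at 10 mg/kg, Ccnd1 by -4.32 and -3.21, and H2-Eb1 by -0.62 and -2.24, each as a log2 fold change of G007-LK.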

How the data were processed

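Total RNA of mouse ileum, extracted with a MasterPure kit and filtered on RNA integrity, was hybridised to a targeted nCounter panel (Mouse Tumor Signaling 360) and its reporters counted, per the labels' protocols. The authors deposited a normalized signal on a linear scale. The software, background rule and reference genes behind it are not given in the sources used here. From the values themselves, each library is whole counts times 1 factor with a floor of 1, and 98.7% to 100% of genes in a library of the comparison came out whole within a tolerance of 0.006. Control probes are unscaled counts. Symbols were set against a RefSeq gene table, where 775 matched, 2 matched as synonyms and 3 did not.

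limma 3.58.1 in R 4.3.3 was fitted to log2(signal + 1) of all 780 genes, with a mean for each of 4 groups over 12 libraries and a mean-variance trend (total degrees of freedom 16.8). Tests were two-sided, adjusted by Benjamini-Hochberg over 780 genes and called at an adjusted p under 0.05. No gene was filtered out. Counts per library ran from 44180 to 508829. Between replicates within the 2 arms the chi-square per degree of freedom against counting error was 10.4 to 129. Replicates thus differed by more than counting error. This measure grows with depth, and its highest values, 101 and 129, involved G007-LK replicate 1. Background was the mean plus 2 SD of the 8 negative probes. A gene below it in all libraries of 1 arm was also given a fold with that arm set to its backgrounds. edgeR 4.0.16 and DESeq2 1.42.0 on the recovered counts were alternatives, beside other floors, scalings, pseudocounts and left-out libraries. The scripts were tested on simulated data.

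The members, the 27 gene lists and the rule for named genes were chosen with earlier results of these data known. The rule names up to 12 called genes in each direction, the 5 core Wnt genes and up to 4 genes of smallest p in each list. Lists are described by counts and medians, without a test. Some genes that the rule names are not reported here, though they count in the totals.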

Additional observations from a re-analysis of the deposited data

How the results depend on the processing

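Against 22 calls (14 higher, 8 lower), the 6 libraries alone gave 1 (1 and 0), a common background floor 10 (8 and 2), median-ratio rescaling 6 (4 and 2), edgeR on recovered counts 12 (9 and 3), edgeR after its expression filter 6 of 720 genes (5 and 1), DESeq2 59 (37 and 22) and array weights 126 (66 and 60). Quantile normalization gave 19 (9 and 10), a pseudocount of 10 gave 26 (17 and 9), and the 684 genes above the mean background gave 22. Without both deepest libraries, G007-LK replicate 1 and control replicate 1, an alternative chosen after seeing the data, 34 were called (17 and 17). Leaving out 1 library at a time gave 7 to 33 calls, 5 to 22 higher and 2 to 11 lower. All 22 called genes kept their sign in each of these settings, and the causes of the differences in count were not tested.

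With the replicate number as a block, 61 genes were called (33 higher, 28 lower). The numbers share no stated source, the deviations of same-numbered mice from their group means correlated at 0.31, 0.01 and 0.13, and G007-LK replicate 2 correlated better with STP1002 replicate 3 (0.21) than with its own number.

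Of 34 uncalled genes named with values, 6 changed sign. Ctnnb1 was -0.26 with quantile normalization, -0.31 with array weights, -0.19 without STP1002 5 mg/kg replicate 1, and -0.31 without G007-LK replicate 1 or both deepest libraries. H2-DMa was 0.15 with quantile normalization, 0.62 with array weights, 0.025 with edgeR, 0.021 with DESeq2, 0.012 with edgeR after its filter, 0.09 without STP1002 5 mg/kg replicate 1, and 0.60 without G007-LK replicate 1 or both deepest libraries. Mki67 was -0.77 in each of array weights, without G007-LK replicate 1 and without both deepest libraries. Ly6g was 0.055 with the common floor, 0.0055 with median-ratio rescaling, 0.083 with quantile normalization, 0.78 with array weights, 0.18 with edgeR and with DESeq2, 0.17 with edgeR after its filter, and 0.65 without G007-LK replicate 1 or both deepest libraries. Cdh1 was 0.069 with array weights, and Itgax was -0.46 without STP1002 5 mg/kg replicate 3. Over all left-out libraries Ctnnb1 ranged from -0.31 to 0.33, H2-DMa from -0.64 to 0.60, Mki67 from -0.77 to 1.10, Ly6g from -0.66 to 0.65 and Itgax from -0.46 to 0.84. Over all alternatives the list medians ranged from 1.00 to 2.38 for myeloid, 0.65 to 1.51 for matrix, 0.31 to 1.42 for inflammatory and -0.90 to 0.08 for epithelial genes, against -0.46 to 0.15 for all genes. Genes near background in shallow libraries rest on few counts.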
